A study of Dugesia japonica with 15 samples.

Results

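The comparison described here set DjTcf4 RNAi against control RNAi in intact animals of the freshwater planarian *Dugesia japonica*, using the 8 intact libraries of a series of 15. Both groups are whole, uncut animals given RNA interference, 4 libraries with DjTcf4 as the target and 4 with a control RNAi whose sequence the labels do not name. Each library was made from polyadenylated RNA of a group of animals, so a value is an average over animals and cell types, and fewer cells of a type cannot be told apart from less RNA per cell. The other 7 libraries are trunk fragments at 5 days post amputation (5 dpa), 4 with control RNAi and 3 with DjTcf4 RNAi. They enter the pooled estimate of the spread and serve as a reference for 1 intact library described below.

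TCF proteins are DNA-binding factors that, together with β-catenin, carry the transcriptional output of canonical Wnt signalling. In planarians this pathway is known for setting posterior against anterior identity, in uncut animals as well as in regenerating ones, because an intact planarian keeps replacing its cells from dividing stem cells called neoblasts. The name places DjTcf4 with the TCF proteins, and the data do not test this. The deposited table gives row IDs without gene names, so the row of DjTcf4 is not known, the knockdown has no check, and no tissue marker could be read. Genes are therefore described by ID, level and behaviour, and at most 4 IDs are printed.

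Of 38792 rows, 11775 were at 0 in every intact library, and 17094 (44.1%) passed the filter on low counts and were tested. Total counts ranged from 8955897 to 11323359 in control and from 9148426 to 12224216 in DjTcf4 RNAi libraries. At an equal depth of 8955873 counts, 20699 to 22037 genes had a count in the control libraries and 20837 to 22255 in the RNAi libraries, groups that overlapped (difference 505.2 genes, two-sided exact permutation p = 0.314, n = 4 each, p = 0.486 adjusted over 2 library measures, higher in 3 of 4 RNAi libraries than the control mean). Without RNAi replicate 2 the difference was 535.9 genes (exact permutation p = 0.314, adjusted p = 0.629). The 100 most abundant genes took 25.3% to 27.2% of the counts in control and 25.4% to 29.6% with RNAi, with the highest share in RNAi replicate 2 (difference 0.939 percentage points, exact permutation p = 0.486, adjusted p = 0.486; 0.0931 points without that library, exact permutation p = 0.857). The smallest p this design allows is 0.0286.

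DjTcf4 RNAi intact replicate 2 stood apart from the other 7 intact libraries, so the counts of called genes are given with and without it. Its log2 CPM (counts scaled for library size, per the edgeR definition) across genes had a median correlation of 0.909 with the control intact libraries and 0.934 with the other RNAi libraries. The other 3 RNAi libraries had values of 0.975 to 0.977 with control and 0.972 to 0.979 with each other. It was at least 2-fold below the mean of its 3 group mates for 2839 genes and at least 2-fold above for 636, together 20.3% of those tested. Measured in the same way, the control libraries departed from their mates for 3.26% to 4.51% of genes, and RNAi replicates 1, 3 and 4, each against the other pair, for 2.84% to 6.21%.

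The departure of RNAi replicate 2 went with the change after amputation. Its log2 difference from RNAi replicates 1, 3 and 4 was set beside the log2 difference of control 5 dpa from control intact libraries, a comparison with which it shares no library. The correlation across 17094 genes was 0.714 (Spearman 0.604), with the same sign in 73.9% of genes, and the slope was 0.886. By level of expression the correlation was 0.550 in the least abundant genes and 0.767, 0.824 and 0.761 in the next 3 groups of equal size. Smaller displacements on the same axis were present in the other RNAi libraries, each against the other pair of that trio: the correlation was 0.229 for replicate 1 and 0.223 for replicate 4, with slopes of 0.129 and 0.117, and -0.348 for replicate 3, with a slope of -0.245. These 3 values come from deviations that share libraries and are descriptions across genes, which are not independent replicates.

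**Figure D1:**
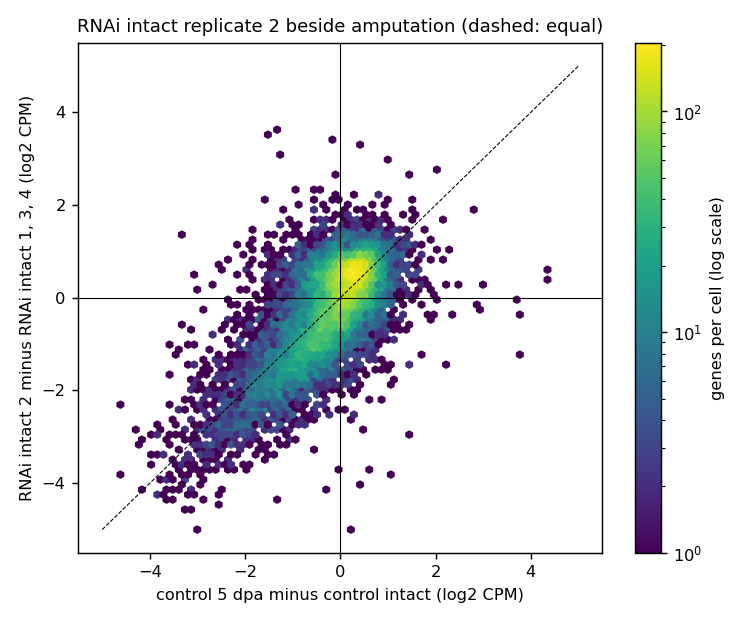
Each cell counts genes by the log2 CPM difference of control 5 dpa from control intact libraries (x axis) and of DjTcf4 RNAi intact replicate 2 from RNAi intact replicates 1, 3 and 4 (y axis), with values beyond 5 drawn at the edge. The cloud is stretched along the dashed line of equality, above all for genes that were lower after amputation, with a correlation of 0.714.

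Some genes counted in all other intact libraries were missing from RNAi replicate 2. There were 75 genes at 0 in this library that had at least 3 counts in each of the other 7 intact libraries, and 18 when at least 10 counts were required. For each of the other 7 libraries in turn, the same counts were 5 to 59 and 0 to 5. The 18 genes had a median level of 2.76 CPM in the other 7 intact libraries and 0.572 CPM at 5 dpa, and none of them was at 0 in all 7 of the 5 dpa libraries. Of the 18, 9 were at 0 in at least 1 of the 5 dpa libraries and 9 had a count in all 7.

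The main comparison asked which genes differ in level between DjTcf4 RNAi and control RNAi in uncut animals. DJKW.51 and DJKW.25863 were lower with RNAi, and no gene was called higher. A call is a Benjamini-Hochberg adjusted p under 0.05 in edgeR's quasi-likelihood test. The called share was 0.0117% of 17094 genes for lower and 0% for higher. At an unadjusted p under 0.05, 435 genes were lower and 764 higher (2.54% and 4.47%). With DESeq2, 30 genes were lower (0.208%) and 6 higher (0.0416%). With limma-voom, 38 were lower (0.222%) and 4 higher (0.0234%). Both tools shared 25 of the lower genes and 4 of the higher ones.

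DJKW.51 stood at 52.0, 49.2, 52.6 and 59.4 CPM in control replicates 1 to 4 and at 17.4, 15.9, 18.1 and 18.4 CPM in DjTcf4 RNAi replicates 1 to 4. The groups lie far apart, and RNAi replicate 2 is level with its mates for this gene. It was 3.05-fold lower with RNAi (log2 fold change -1.61, SE 0.145, 95% interval -1.92 to -1.31, edgeR adjusted p = 3.84e-05, lower in 4 of 4 RNAi libraries). Without RNAi replicate 2 the log2 fold change was -1.58 (SE 0.143, edgeR adjusted p = 1.80e-05). The 5 dpa libraries do not enter the intact means, but they share the pooled spread, so the p-values of both stages are not separate. At 5 dpa the gene stood at 51.1 to 61.4 CPM in 4 control and 13.2 to 21.6 CPM in 3 RNAi libraries (log2 fold change -1.79, SE 0.162, edgeR adjusted p = 1.95e-05). Taken as 5 dpa minus intact, the log2 responses differed by -0.18 (SE 0.210, edgeR interaction adjusted p = 0.961).

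DJKW.25863 stood at 50.5, 62.0, 53.9 and 56.1 CPM in control replicates 1 to 4 and at 32.4, 38.4, 32.6 and 32.8 CPM in RNAi replicates 1 to 4. The groups do not overlap, which held in this direction for 1.58% of all tested genes. RNAi replicate 2 is the highest of its group. The gene was 1.63-fold lower (log2 fold change -0.71, SE 0.108, 95% interval -0.94 to -0.48, edgeR adjusted p = 0.0332). The call ended without any of control replicates 2, 3 and 4 or RNAi replicates 1, 3 and 4 (edgeR adjusted p from 0.0823 to 0.162). It also ended with the compared groups alone, where no 5 dpa library enters the spread (edgeR adjusted p = 0.647). With the replicate number as a block it ended too (edgeR adjusted p = 0.0569). Adjusted p ran from 4.73e-08 to 0.647 over all alternatives and tools, while the log2 fold change stayed between -0.78 and -0.67 in every alternative. Without RNAi replicate 2 it was -0.78 (SE 0.104, edgeR adjusted p = 0.00168). At 5 dpa, in libraries that enter the intact comparison through the pooled spread alone, the gene stood at 36.9 to 40.2 CPM in 4 control and 23.9 to 26.7 CPM in 3 RNAi libraries. The difference was -0.59 on the log2 scale (SE 0.119, edgeR adjusted p = 0.100). With RNAi intact replicate 2 left out of the fit, which changes the pooled spread and the genes tested but no 5 dpa library, that difference was -0.58 (SE 0.105, edgeR adjusted p = 0.0218), a call.

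No gene with higher values in RNAi passed the test with all libraries, and the lowest adjusted p among them was 0.278. Among genes with a mean of at least 5 CPM and the same sign in both fits, the pair of higher genes with the lowest p was DJKW.18015 and DJKW.832. DJKW.18015 stood at 4.30, 5.14, 3.76 and 7.03 CPM in control replicates 1 to 4 and at 8.96, 9.39, 9.08 and 12.1 CPM in RNAi replicates 1 to 4. All RNAi libraries, replicate 2 included, lie above all control libraries, as for 1.83% of all tested genes (log2 fold change of DJKW.18015 0.97, SE 0.202, edgeR adjusted p = 0.327). Without RNAi replicate 2 the log2 fold change was 0.98 (SE 0.211, edgeR adjusted p = 0.106). DESeq2 and limma-voom gave adjusted p-values of 0.0163 and 0.0135 for this gene, within a range of 0.0135 to 0.822 over all alternatives. At 5 dpa its levels overlapped, at 7.35 ± 0.813 CPM in control (SD, n = 4) and 6.83 ± 0.884 CPM with RNAi (SD, n = 3). The difference between the responses at 5 dpa and in intact animals, a log2 value of -1.07 (SE 0.297), had an edgeR interaction adjusted p of 0.961.

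DJKW.832 stood at 5.17, 3.32, 4.14 and 3.82 CPM in control replicates 1 to 4 and at 6.89, 12.7, 5.37 and 11.8 CPM in RNAi replicates 1 to 4. The groups do not overlap, but the lowest RNAi library lies next to the highest control library, and RNAi replicates 2 and 4 lie well above 1 and 3. Its log2 fold change was 1.16 (SE 0.256, edgeR adjusted p = 0.351), and 0.96 without RNAi replicate 2 (edgeR adjusted p = 0.284). DESeq2 gave an adjusted p of 0.0235, within a range of 0.0235 to 0.900 over all alternatives. At 5 dpa the gene was called higher with RNAi, at 6.69 to 8.25 CPM in 4 control and 17.0 to 27.0 CPM in 3 RNAi libraries (log2 fold change 1.47, SE 0.257, edgeR adjusted p = 0.0465). With RNAi intact replicate 2 left out of the fit, that value was 1.48 (SE 0.225, edgeR adjusted p = 0.00477). The response at 5 dpa differed from that in intact animals by a log2 value of 0.31 (SE 0.364, edgeR interaction adjusted p = 0.961).

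**Figure D2:**
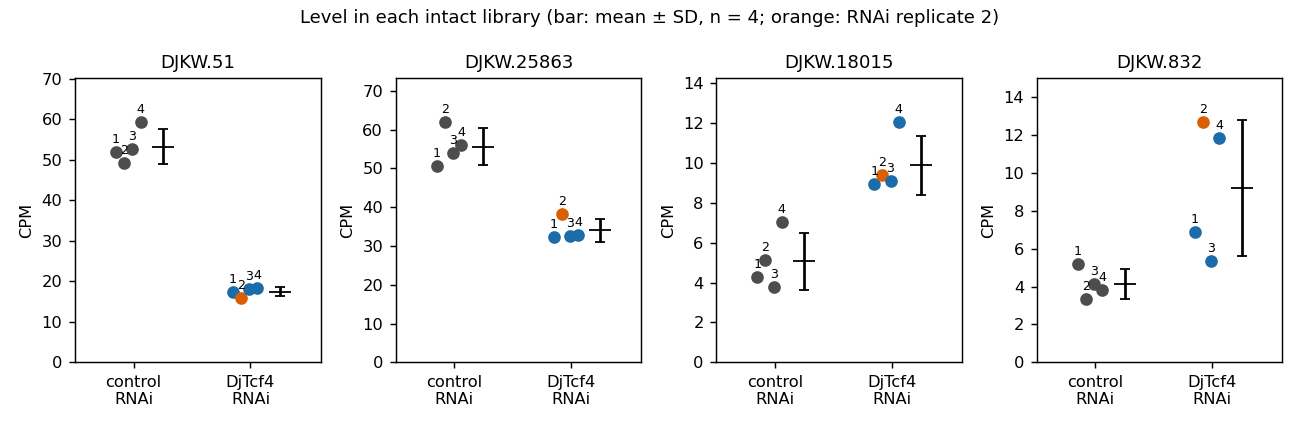
Level in CPM (y axis, from 0) of DJKW.51, DJKW.25863, DJKW.18015 and DJKW.832 in each intact library, numbered by replicate, with RNAi replicate 2 in orange and the mean ± SD of each group (n = 4) as a bar. Groups do not overlap for any of the 4 genes, and the gap is widest for DJKW.51, at 49.2 to 59.4 against 15.9 to 18.4 CPM. The genes were picked by lowest p in a fit that holds these libraries, which favours such separation. Of all tested genes, 1.58% were lower and 1.83% higher without overlap.

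Without DjTcf4 RNAi intact replicate 2, 23 genes were lower with RNAi and 0 higher in edgeR, 0.136% and 0% of 16922 genes tested, and DJKW.51 and DJKW.25863 were among them. At an unadjusted p under 0.05, 573 genes were lower and 341 higher (3.39% and 2.02%). With DESeq2, 63 genes were lower (1.03% of those given an adjusted p) and 2 higher (0.0328%). With limma-voom, 45 were lower (0.266%) and 1 higher (0.00591%). With all libraries, replicate 2 included, edgeR called 2 of these 23 genes lower, DESeq2 16 and limma-voom 22. The limma-voom fit gave each library a quality weight, which can lower the part played by an outlying library such as RNAi replicate 2. Without that replicate, 21 of the 23 genes were called lower by all 3 tools. Their median log2 fold change was -0.74, a 1.67-fold lower level, against -0.024 over all tested genes, and 2 of the 23 were at least 2-fold lower. The last gene called had an adjusted p of 0.0497 and the next in line 0.0595, while the lowest adjusted p of a gene with a higher value was 0.106. The number rests on single libraries: 5 of the 23 were still called when control replicate 3, RNAi replicate 1 or RNAi replicate 4 was also left out, and 9 without control replicate 1 or without control replicate 4. Without control replicate 4, 1 gene was called higher, as was 1 gene with no filter on low counts and 1 gene with the replicate number as a block. All 23 genes kept a log2 fold change below 0 in each of these fits.

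The called genes were well expressed. Their control level ran from 19.9 to 498 CPM with a median of 112 CPM, against a median of 12.4 CPM over the 17094 genes in the intact libraries. When those genes were divided into 4 groups of equal size by mean CPM, 19 of the 23 fell in the most abundant, 4 in the next and 0 in the lower 2. Fractional counts occurred in 5 of the 23 and in 18.1% of all tested genes. If the authors' counting split reads between similar sequences, the levels of such genes are uncertain. Row IDs with the prefix Maker made up 3 of the 23 and 2.49% of the tested genes.

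For the most abundant of the 23, RNAi replicates 1, 3 and 4 stood at 259, 271 and 265 CPM, and control replicates 1 to 4 at 626, 415, 484 and 468 CPM. RNAi replicate 2 stood at 460 CPM, inside the control range, and the counts of this gene were fractional. Another abundant gene stood at 441, 436, 485 and 469 CPM in control replicates 1 to 4 and at 274, 296 and 268 CPM in RNAi replicates 1, 3 and 4. Here RNAi replicate 2, at 81.3 CPM, lay far below all others. A less abundant gene stood at 56.7, 51.5, 52.7 and 47.6 CPM in control and at 29.5, 28.2 and 28.8 CPM in RNAi replicates 1, 3 and 4, with RNAi replicate 2 at 49.8 CPM among the controls.

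RNAi replicate 2 took no part in choosing the 23 genes, although the control libraries did. Over all tested genes it lay below every control library for 34.6% and above every control library for 43.5%. Each of RNAi replicates 1, 3 and 4 lay below all controls for 18.6% to 24.3% of genes and above them for 17.5% to 19.8%. Among the 23 genes, replicate 2 lay below every control library for 14, and below the control mean for 18, against 43.8% of all tested genes. Its log2 deviation from the control mean had a median of -0.24 over the 23 genes and 0.13 over all tested genes, and ran from -2.49 to 0.29. The medians of RNAi replicates 1, 3 and 4 over the 23 genes were -0.74, -0.61 and -0.78, and these 3 libraries lay below every control library for all 23, as the choice of genes favours. As those 3 libraries already lay below all controls, the groups of 4 and 4 did not overlap for the same 14 genes, which restates the position of replicate 2. Over all tested genes, RNAi replicates 1, 3 and 4 lay below all controls for 660, and all 4 RNAi libraries did so for 270. In the same fit without RNAi replicate 2, 14 of the 23 were lower and 1 higher at 5 dpa than in intact control animals, against 22.7% of all tested genes lower. This comparison shares the control intact libraries. Of the 14, RNAi replicate 2 was below every control library for 8, and of the other 9 for 6. Whether its position on the amputation axis sets its values for these genes was not tested.

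**Figure D3:**
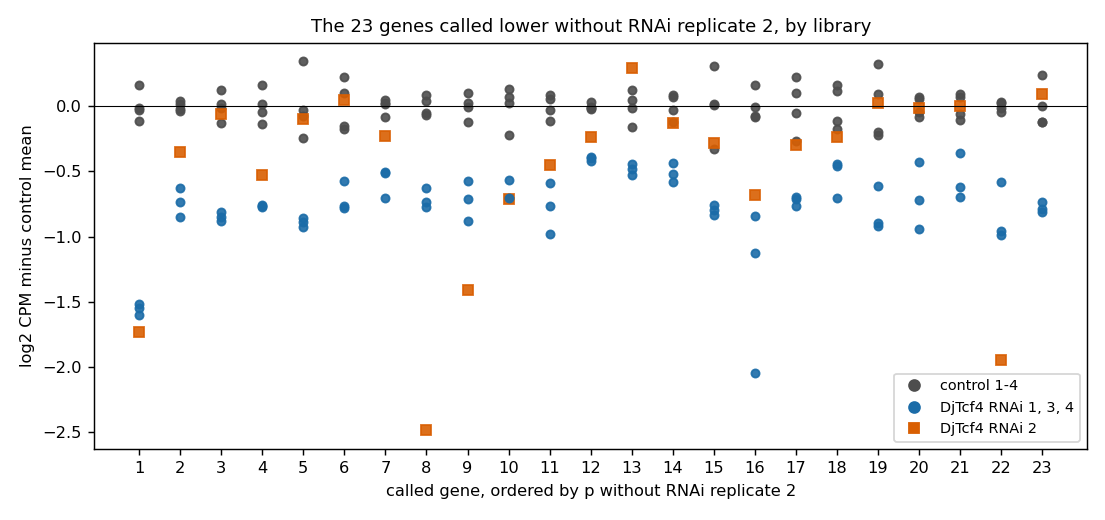
Log2 CPM minus the control mean (y axis) in each intact library for the 23 genes called lower without DjTcf4 RNAi intact replicate 2, ordered by p (x axis). Control libraries (grey) scatter around 0 and RNAi replicates 1, 3 and 4 (blue) lie below them, while RNAi replicate 2 (orange squares) ranges from -2.49 to 0.29.

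The 5 dpa libraries gave a reading of the same genes in other samples, with the spread per gene estimated in 1 fit. All 23 genes had a log2 fold change below 0 with RNAi at 5 dpa, against 47.6% of all tested genes. Their median there was -0.37, against 0.012 over all genes, and they ran from -1.85 to -0.087. Of the 23, 9 were called lower at 5 dpa, where 0.148% of all tested genes were called lower. The other 14 were not called, which does not show that they did not differ. The fit that chose the 23 genes also gave the 5 dpa calls, so a gene with a low estimated spread is favoured in both. The shares over all tested genes cover every level of expression, while 19 of the 23 were in the most abundant group. No share matched for level is given.

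Effect sizes shrank as expression rose. In the least abundant of the 4 groups of genes, with a median of 1.51 CPM, the median absolute log2 fold change was 0.33 with all libraries and 0.29 without RNAi replicate 2. In the next 2 groups, with medians of 6.68 and 22.5 CPM, it was 0.22 and 0.18 with all libraries and 0.16 and 0.11 without that library. In the most abundant group, with a median of 87.1 CPM, it was 0.14 and 0.086. The 5th and 95th percentiles of the log2 fold change in the most abundant group were -0.44 and 0.31 with all libraries, and -0.28 and 0.16 without RNAi replicate 2.

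Differences of 2-fold or more came mainly from the least abundant genes. With all libraries, 176 genes were at least 2-fold higher in RNAi and 106 at least 2-fold lower, together 1.65% of those tested, and 164 and 88 of them were in the least abundant group. In the most abundant group 0 genes were higher and 6 lower by that much. DJKW.51 was the 1 called gene among the 106. Without RNAi replicate 2 the counts were 131 and 94, of which 128 and 85 were in the least abundant group, and 2 of the 94 were called.

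The intervals show what size of response the data leave room for. With all libraries, the 95% interval of the fold change lay inside 2-fold in either direction for 25.4%, 78.8%, 89.7% and 93.2% of genes from the least to the most abundant group. Without RNAi replicate 2 these shares were 27.5%, 88.7%, 98.2% and 99.0%. Inside 1.5-fold in either direction lay 75.1% of the most abundant genes with all libraries and 90.5% without that library, against 0.585% and 0.341% of the least abundant. The median SE of the log2 fold change fell from 0.429 to 0.137 across the 4 groups with all libraries.

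**Figure D4:**
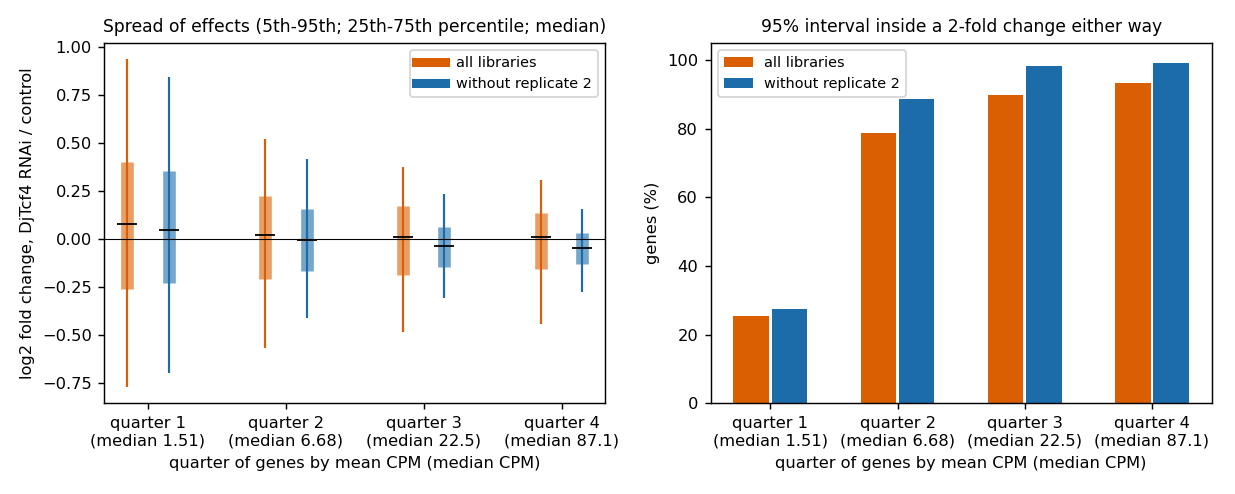
Left, the log2 fold change of DjTcf4 RNAi over control in 4 groups of genes by mean CPM, with all libraries (orange) and without RNAi replicate 2 (blue): thin lines span the 5th to 95th percentile, thick lines the 25th to 75th, and dashes mark medians. Right, the percentage of genes whose 95% interval lies inside a 2-fold change either way, which rises from 25.4% to 93.2% with all libraries.

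The spread within groups followed the same order. The median SD of log2 CPM between the 4 control libraries was 0.478, 0.273, 0.174 and 0.128 from the least to the most abundant group. Between RNAi replicates 1, 3 and 4 it was 0.414, 0.251, 0.169 and 0.121. With replicate 2 it was 0.530, 0.390, 0.322 and 0.279, so that the added library raised the spread of the most abundant genes by more, in proportion, than that of the least abundant. The biological coefficient of variation over all 15 libraries was 0.213, and 0.154 without it.

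**Figure D5:**
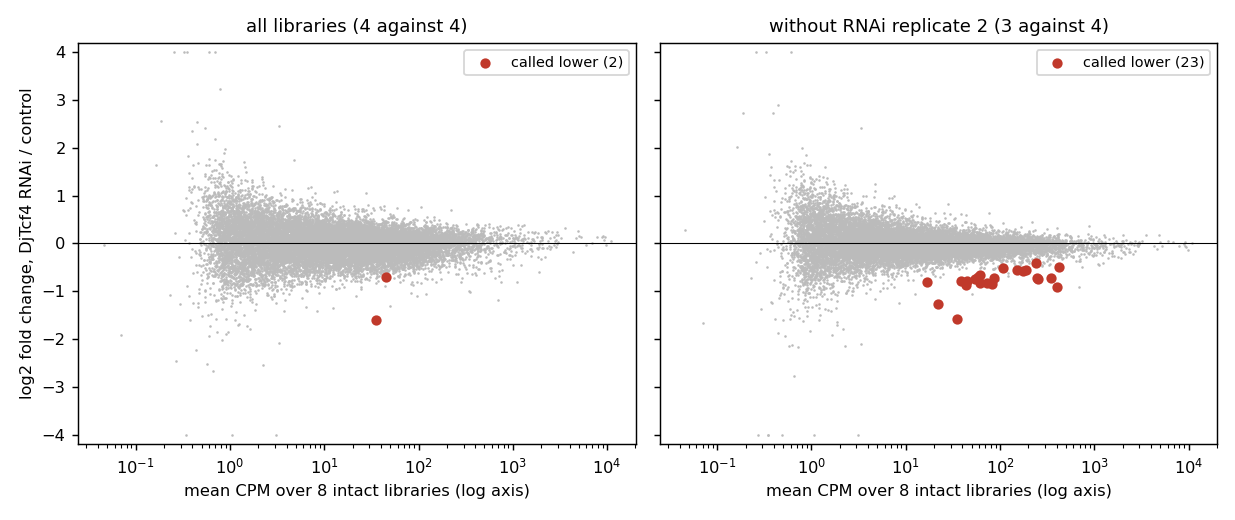
Log2 fold change of DjTcf4 RNAi over control (y axis, values beyond 4 drawn at the edge) against mean CPM over the 8 intact libraries (log x axis), with all libraries (left) and without RNAi replicate 2 (right). Called genes are in red, 2 on the left and 23 on the right, all below 0, and the grey cloud of other genes is narrower on the right.

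Beyond the called genes the direction of the differences changed with the scaling and with RNAi replicate 2. The share of genes lower among those at an unadjusted p under 0.05 was 36.3% with all libraries and 62.7% without RNAi replicate 2. Scaling by library size alone, an alternative added after the data were seen, gave 26.5% and 35.9%, and so turned the majority without that library from lower to higher. DESeq2 size factors, also added after the data were seen, gave 46.2% and 62.7%. In the most abundant group without RNAi replicate 2, the counts were 285 lower and 62 higher, and 159 lower and 184 higher with library size alone. Between both fits, 3995 of 16922 genes (23.6%) changed the sign of their log2 fold change, and 532 had an unadjusted p under 0.05 with the same sign in both.

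Agreement between libraries was also read gene by gene. If group labels are exchanged at random, groups of 4 and 4 do not overlap in a share of 0.0286, both directions together. The counts below were not tested against such a share, as genes are not independent. With all libraries, the 4 RNAi libraries lay below all 4 control libraries for 270 genes (1.58%) and above all 4 for 312 (1.83%). DESeq2 size factors turned this balance to 315 lower and 282 higher, and library size alone gave 225 and 442. Both scalings were added here after the data were seen. For 3 libraries against 4 the share under exchanged labels is larger than 0.0286, so that value is no reference for the counts that follow. With RNAi replicates 1, 3 and 4 alone, 660 genes (3.86%) lay below all 4 control libraries and 471 (2.76%) above. In the latter count, 283 of the genes that were lower and 83 of those that were higher came from the most abundant group, and 80 and 169 from the least abundant. With library size alone the 660 and 471 became 442 and 725.

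The 4 differences between same-numbered libraries share no library with each other, though the numbers are not stated to pair samples. Their correlations across all tested genes were -0.052 (replicates 1 and 2), 0.024 (1 and 3), 0.017 (1 and 4), -0.149 (2 and 3), 0.400 (2 and 4) and -0.100 (3 and 4). In the most abundant group they ran from -0.355 (2 and 3) to 0.632 (2 and 4), and the pairs 1 and 3 stood at 0.351 and 1 and 4 at 0.036. Over all genes 3 of the 6 values were below 0. The RNAi library was lower in all 4 same-numbered differences for 6.34% of tested genes and higher in all 4 for 6.36%. Of the 23 genes called without RNAi replicate 2, 15 were lower in all 4 differences and 8 in 3 of them. RNAi replicates 1, 3 and 4 served to choose these genes and lay below every control library for all 23. Only the difference of replicate 2 was free to go either way, so the 15 cannot be set against the 6.34%.

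Presence and absence gave few differences between groups. Genes with at least 1 count in all 4 control libraries and 0 in all 4 RNAi libraries numbered 2, and 10 genes showed the reverse. With at least 3 counts in each library of the group that has the gene, both numbers were 0. With RNAi replicates 1, 3 and 4 alone, 2 genes had at least 3 counts in each RNAi library and 0 in all control libraries, and 0 genes the reverse. No gene went from 10 or more counts in every library of a group to 0 in every library of the other group, in either direction and with or without RNAi replicate 2.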

How the data were processed

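The authors deposited a table of expected counts (estimated, not always whole, read numbers per gene) in 15 columns, matched to libraries by their labels; 8.23% of the values are not whole. Per the submitters' processing notes, the tools were Bowtie2, HISAT2, RSEM and DESeq2, without role or version. The genome build is not given in the sources used here. RNA was extracted with Trizol and captured on oligo-dT beads, per the labels' protocols. Nothing in the labels says that replicates are separate cultures or animals, so p-values reflect the spread between samples, possibly technical. All pairs of intact replicates differed beyond sampling noise (chi-square per degree of freedom from 3.57 to 69.7).

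Counts were rounded and kept with filterByExpr by group (minimum count 10, minimum total 15). They were scaled with TMM and tested with edgeR 4.0.16 in R 4.3.3, in 1 quasi-likelihood fit with robust dispersions over all 15 libraries, or 14 without DjTcf4 RNAi intact replicate 2, with Benjamini-Hochberg adjustment over all tested genes. Standard errors, the size of the log2 fold change over the root of F, are approximate, and 95% intervals use them; 1 gene had none. CPM uses effective library sizes, and log2 CPM a prior count of 2. DESeq2 1.42.0 and limma 3.58.1 (voom with quality weights) were alternatives; shares called by DESeq2 leave out genes without an adjusted p. Steps were tested on simulated counts. Row IDs have no names, so the gene and marker lists were not used. The named IDs are the 2 lower and 2 higher of lowest p with the same sign in both fits and at least 5 CPM on average; other genes are given without an ID. The members, lists and tests were chosen with earlier results of these data known.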

Additional observations from a re-analysis of the deposited data

Results flagged for a closer look

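Among 26 sets of 4 library values examined, 5 held 1 value far from the other 3; chance marks about 1 in 20 such sets, and several of these sets are related. DjTcf4 RNAi intact replicate 2 had a median correlation of 0.909 with the control intact libraries, against 0.975 to 0.977 in its group mates. Its median correlation with RNAi replicates 1, 3 and 4 was 0.934, against 0.972 to 0.979. In the same library DJKW.25863 stood at 38.4 CPM, against 32.4 to 32.8 CPM in its mates. DJKW.18015 stood at 12.1 CPM in DjTcf4 RNAi intact replicate 4, against 8.96 to 9.39 CPM in the other 3. At 5 dpa, DJKW.832 stood at 6.69 CPM in control replicate 2, against 8.09 to 8.25 CPM in the other 3 control libraries.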

How the results depend on the processing

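For RNAi in intact animals with all libraries (2 calls), 4 calls came from no filter, from scaling by library size alone and from DESeq2 size factors. The compared groups alone gave 1, at least 2-fold 1, DESeq2 36 and limma-voom 42. Leaving out 1 library gave 1 to 23, the highest without DjTcf4 RNAi replicate 2; the compared groups alone without it gave 15. Both calls were kept without control replicate 1 or RNAi replicate 2, and 1 of them without any of the other 6 intact libraries. Without that replicate (23 calls), library size alone gave 14, the compared groups alone 15, at least 2-fold 2, DESeq2 65 and limma-voom 46; leaving out a further library gave 5 to 17. The lowest, 5, came without control replicate 3, RNAi replicate 1 or RNAi replicate 4, each with all 5 among the 23, and control replicates 1 and 4 gave 9 and 10 calls, 9 of each among the 23. The tenth call was higher with RNAi, as was 1 call with no filter and 1 with the replicate block. In each of these fits all 23 genes kept a log2 fold change below 0. Correlations of deviations between same-numbered libraries were -0.125, -0.206, -0.072 and 0.085, and those between differently numbered libraries ran from -0.495 to 0.477. The labels state no pairing, and these few values cannot decide whether samples were paired. The fit with the replicate number as a block called 1 gene with all libraries and 20 without RNAi replicate 2, 16 of them among the 23. No intact library correlated best with the library of its own number in the other group. DJKW.51 was called in 17 of 17 alternatives and DJKW.25863 lost its call in 8 of 17. The median size of differences by level moved by less than the spread between RNAi libraries under 3 alternatives. That spread includes RNAi replicate 2 itself, so it is a weak measure for leaving that library out. Without RNAi replicate 2 the median absolute log2 fold change in the most abundant group fell from 0.14 to 0.086. Differences in genes with a count and in the share of the 100 most abundant genes stayed above an exact permutation p of 0.05 in 9 alternatives each. The cause of a different count was not tested. The 95% intervals were widest in the least abundant genes, where 25.4% lay inside 2-fold; low counts and a larger spread between libraries were both present there, and the part of each was not tested.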
